A study of Homo sapiens with 6 samples.

Results

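The acyl-CoA synthetases described here were 10 genes of the 57500 listed for each library: ACSS1, ACSS2, ACSS3, AACS, ACSM3, ACSL1, ACSL3, ACSL4, ACSL5 and SLC27A2. They were chosen by name to cover fatty acids of short, medium, long and very long chain, with the glycine and vehicle values of these same libraries already known, so the contrast between glycine and vehicle is given for them as a description with no test. No numerical threshold was part of the choice. Gene expression was measured by RNA sequencing in wild-type HepG2 cells, a human hepatocarcinoma line. There were 3 libraries after 24 h with vehicle and 3 after 24 h with 10 mM glycine, and the standard medium of the study already contained some glycine in both groups. Nothing in the labels says whether the libraries came from separate cultures, although the study names them biological replicates. Where a p-value is given, it weighs the difference between the groups against the spread of these 6 libraries within their groups.

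Before beta-oxidation or esterification, a fatty acid is joined to coenzyme A. Acyl-CoA synthetases make this thioester in 2 steps, first an acyl-adenylate from ATP and then the transfer to coenzyme A, and the product can be burned in mitochondria or peroxisomes, built into triglyceride, phospholipid or cholesterol ester, or, in liver, conjugated to glycine. The enzymes are grouped by the chain length they prefer and also differ in where they sit, from the cytosol and the mitochondrial matrix to the endoplasmic reticulum, lipid droplets and peroxisomes. They share an AMP-binding domain with a short glycine-rich signature.

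That shared signature is shown as a feature of the enzyme family. Its presence in the members largely follows from their choice as acyl-CoA synthetases, so nothing is read from it. A search of the translated principal transcripts of GENCODE 29 (build GRCh38) found it in all 10 members and in 26 of 27 genes of the wider family, the exception being ACSM6. Each line gives the 36 coding bases of the match, 5′ to 3′ on the coding strand, with the 15 bases of the glycine-rich core in capitals.
ACSS1: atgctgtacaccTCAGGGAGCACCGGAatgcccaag
ACSS2: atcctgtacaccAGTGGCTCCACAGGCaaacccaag
ACSS3: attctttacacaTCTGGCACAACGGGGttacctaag
AACS: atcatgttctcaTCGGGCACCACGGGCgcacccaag
ACSM3: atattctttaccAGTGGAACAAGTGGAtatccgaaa
ACSL1: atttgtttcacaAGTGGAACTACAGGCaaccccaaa
ACSL3: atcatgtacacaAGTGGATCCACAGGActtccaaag
ACSL4: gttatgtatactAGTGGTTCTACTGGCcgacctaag
ACSL5: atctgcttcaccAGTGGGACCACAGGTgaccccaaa
SLC27A2: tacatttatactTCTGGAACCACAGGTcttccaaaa
The stretch lies in exon 5 of ACSS1 (chr20:25022994-25023029, minus strand), exon 8 of ACSS2 (chr20:34919537-34919572, plus), exon 5 of ACSS3 (chr12:81143212-81143247, plus), exon 8 of AACS (chr12:125107212-125107247, plus) and exon 5 of ACSM3 (chr16:20780769-20780804, plus). In the long chain genes it lies in exon 8 of ACSL3 (chr2:222921324-222921359, plus) and exon 8 of ACSL4 (chrX:109678336-109678371, minus), whereas in ACSL1 (chr4:184773144-184773687, minus) and ACSL5 (chr10:112410611-112411466, plus) it is split between exons 9 and 10. In SLC27A2 it is split between exons 2 and 3 (chr15:50197685-50202497, plus). The codons differ between members even where the core is the same, and the closest pair of members over the whole coding sequence, ACSL3 and ACSL4, was 68.8% identical.

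The libraries held between 31795489 and 58815986 counts, the glycine replicate 2 library being the deepest. All 10 members passed the filter on low counts. The HepG2 label was checked against 10 hepatocyte markers, all of which were above 1 CPM (counts scaled to a common library size) in every library. Their summed level was 31993 to 36342 CPM with vehicle and 28018 to 31945 CPM with glycine, without overlap. The median log2 change of these markers was -0.23, and 2 of 10 were called lower, TTR (log2 change -0.32, adjusted p = 0.00921) and APOA1 (-0.26, adjusted p = 0.0483, lost under 9 of 14 alternatives). Markers of leukocytes, macrophages, endothelium, fibroblasts, stellate cells and bile duct summed to 76.8 to 87.6 CPM with vehicle and 70.2 to 76.9 CPM with glycine, mostly from ACTA2, and 6 of 10 never exceeded 1 CPM, with PTPRC, CD163, DCN and COL3A1 at or near 0. Of the 6 that were tested, 4 were called (66.7%): COL1A1 (2.15 to 4.38 CPM, log2 change 1.03, adjusted p = 0.000585) and CD68 (0.63, adjusted p = 0.0226) were higher, and VWF (-1.18, adjusted p = 0.0239) and ACTA2 (-0.24, adjusted p = 0.0402) lower with glycine. The calls of CD68, VWF and ACTA2 were each lost without at least 5 of the 6 libraries in turn. That of CD68 was also lost by the DESeq2 Wald test (adjusted p = 0.0531). Other genes covered 85.8% of the CD68 exon length, 81.7% on the same strand, so its reads may belong to them. For ACTA2, 30.1% was covered on the other strand. The part of either marker list in the results was not tested. Over all genes, 2053 of 15492 tested genes (13.3%) were called at an adjusted p of 0.05, with 1040 higher (6.71%) and 1013 lower (6.54%) with glycine, and the libraries of the 2 groups did not overlap for 31.6% of genes. Bulk RNA cannot tell a change in the number of cells expressing a gene from a change in RNA per cell.

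With vehicle, the long chain enzymes ACSL4 and ACSL3 had the highest levels among the members when counts were taken per length. On the scale of CPM per kilobase of merged exons, the level was 44.5 ± 3.36 (SD, n = 3) for ACSL4, 27.9 ± 0.651 for ACSL3, 22.9 ± 1.84 for ACSM3 and 20.2 ± 1.19 for ACSS2. Lower levels were found for ACSL5 (14.3 ± 1.06), ACSL1 (11.2 ± 0.80), ACSS1 (10.3 ± 0.0776), ACSS3 (9.54 ± 0.264), SLC27A2 (9.34 ± 0.707) and AACS (4.43 ± 0.495). In this order only ACSS3 and SLC27A2 overlapped as neighbours among the vehicle libraries. The order depended on which exons were counted as the gene. Per kilobase of the principal transcript, ACSM3 came first at 63.1 ± 5.07, above ACSL4 at 53.5 ± 4.04, and AACS stood above ACSL5, ACSL1, ACSS3 and SLC27A2 at 21.5 ± 2.40. With glycine, ACSL4 was first and ACSL3 second on both scales. The level of ACSM3 per kilobase of merged exons was then 13.3 ± 0.793, below ACSL5 at 20.1 ± 0.897.

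**Figure D1:**
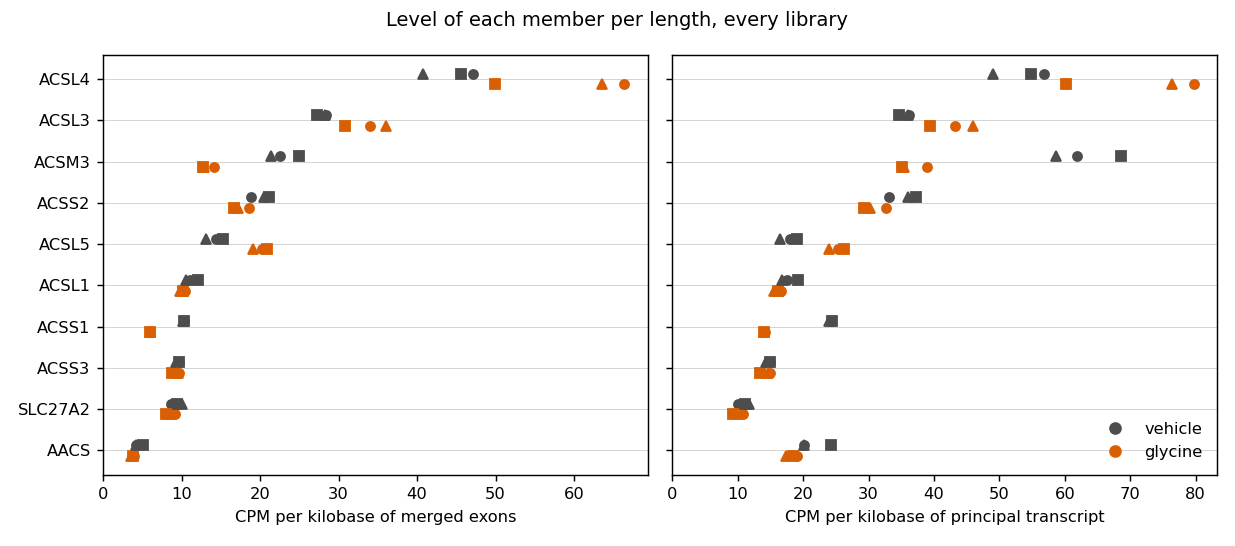
Level of each member in every library on 2 length scales. The horizontal axes give CPM per kilobase of merged exons and CPM per kilobase of the principal transcript, grey marks are vehicle and orange marks glycine libraries, and circle, square and triangle are replicates 1, 2 and 3. ACSM3 lay at 21.3 to 24.9 with vehicle and 12.7 to 14.2 with glycine on the merged exon scale.

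Among the short chain enzymes, ACSS1 stood apart. ACSS1 (ENSG00000154930, chr20:25006230-25058980), the acetyl-CoA synthetase of the mitochondrial matrix, was measured at 89.4, 89.6 and 88.4 CPM in the vehicle libraries and at 52.1, 51.8 and 51.7 CPM in the glycine libraries. The replicates of each group lay almost on top of one another and the groups were far from overlapping. The log2 change with glycine was -0.78 ± 0.0581 (SE), which leaves 0.582 of the vehicle level.

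ACSS2 (ENSG00000131069, chr20:34872146-34927962), which makes acetyl-CoA from acetate in the cytosol and nucleus, was at 101.5, 114 and 110.3 CPM with vehicle and at 100.1, 89.9 and 92.5 CPM with glycine. The groups did not overlap, but the gap between the lowest vehicle and the highest glycine library was small, and the log2 change was -0.21 ± 0.0678. AACS (ENSG00000081760, chr12:125065379-125143333), the cytosolic acetoacetyl-CoA synthetase that feeds ketone bodies into lipid synthesis, was at 66.8, 80.5 and 66.5 CPM with vehicle and at 63.3, 61.1 and 57.5 CPM with glycine. Vehicle replicate 2 was high, while the other 2 vehicle libraries lay just above the glycine libraries. The log2 change was -0.23 ± 0.0798. ACSS3 (ENSG00000111058, chr12:80936414-81261205), a mitochondrial enzyme with a preference for propionate, was at 138.6, 138.7 and 132.1 CPM with vehicle and at 138.7, 124.4 and 135.6 CPM with glycine, so that the groups overlapped. Its log2 change was -0.04 ± 0.0637, with a 95% interval from -0.16 to 0.09. In ACSS3, 13.8% of the exon length was shared with LIN7A and PPFIA2 on the opposite strand.

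ACSM3 (ENSG00000005187, chr16:20610243-20797581), a mitochondrial matrix enzyme acting on butyrate and on medium chain acids, was the only member of the medium chain class. It was measured at 176.2, 195.2 and 166.9 CPM with vehicle and at 110.9, 99.7 and 100.6 CPM with glycine. Every vehicle library was well above every glycine library. The log2 change was -0.79 ± 0.0732, a ratio of 0.578, close to the 0.582 of ACSS1. Of its exon length, 12.9% was also covered by ERI2 and an antisense gene on the other strand.

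**Figure D2:**
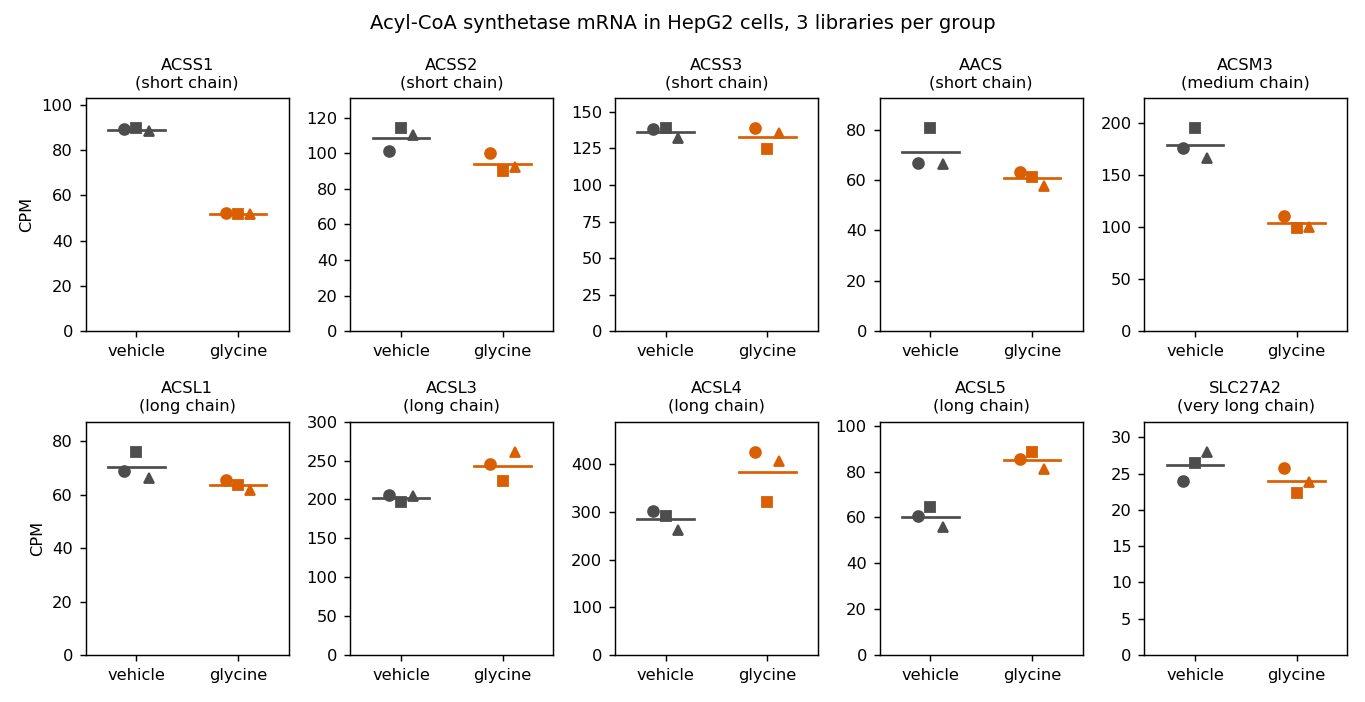
CPM of the 10 members in every library, one panel per gene with its chain length class. Points are libraries (circle, square and triangle for replicates 1, 2 and 3), horizontal lines are group means, and every vertical axis starts at 0. The glycine libraries lay below all vehicle libraries for ACSS1 and ACSM3 and above them for ACSL3, ACSL4 and ACSL5, with glycine replicate 2 the lowest glycine library for ACSL4 at 320.7 CPM.

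Among the long chain members, ACSL4, ACSL5 and ACSL3 were higher with glycine, whereas ACSL1 was not. ACSL4 (ENSG00000068366, chrX:109624244-109733403), which prefers arachidonate and other polyunsaturated acids, was at 302.7, 292.4 and 261.3 CPM with vehicle and at 425.7, 320.7 and 407.5 CPM with glycine. The groups did not overlap, but glycine replicate 2 lay close to the vehicle libraries. The log2 change was 0.43 ± 0.0980.

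ACSL5 (ENSG00000197142, chr10:112374018-112428380), found on mitochondria and the endoplasmic reticulum and tied to triglyceride synthesis in liver, was at 60.8, 64.6 and 55.7 CPM with vehicle and at 85.6, 88.5 and 81.0 CPM with glycine. All 3 glycine libraries were clear of the vehicle libraries, with a log2 change of 0.49 ± 0.0701. ACSL3 (ENSG00000123983, chr2:222860934-222944639), the enzyme of the endoplasmic reticulum and of growing lipid droplets, was at 205.3, 196.8 and 204.6 CPM with vehicle and at 245.7, 223.5 and 260.9 CPM with glycine. The groups did not overlap, the spread among glycine libraries (SD 18.8 CPM) was wider than among vehicle libraries (SD 4.71 CPM), and the log2 change was 0.27 ± 0.0687.

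ACSL1 (ENSG00000151726, chr4:184755595-184826818), a major long chain synthetase of hepatocytes that serves both oxidation and lipid synthesis, had a slightly lower mean with glycine. It was at 69.1, 76.0 and 66.3 CPM with vehicle and at 65.7, 63.5 and 61.7 CPM with glycine. The lowest vehicle library and the highest glycine library differed by less than 1 CPM, and the log2 change was -0.15 ± 0.0678. ACSL1 was not called in the fit over all genes or under any of the 14 alternatives. SLC27A2 (ENSG00000140284, chr15:50182196-50236395), the very long chain synthetase and fatty acid transport protein of peroxisomes and the endoplasmic reticulum, was at 24.0, 26.5 and 27.96 CPM with vehicle and at 25.8, 22.3 and 23.9 CPM with glycine. The groups overlapped, with a log2 change of -0.13 ± 0.0805. Of the SLC27A2 exon length, 19.9% was shared with ATP8B4 on the opposite strand.

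In the fit over all genes, 3 members (ACSL3, ACSL4 and ACSL5) were called higher and 2 (ACSS1 and ACSM3) lower, and the groups did not overlap for 8 of the 10. These counts stand beside 13.3% called and 31.6% not overlapping over all genes, and nothing is read from them, because the choice of genes used the same contrast. For the same reason the calls of single members are no test of them and show only how far the fit depended on its settings. With 1 library left out, which leaves fewer samples, the call of ACSL3 was lost without vehicle replicate 1 (log2 change 0.27), glycine replicate 1 (0.25) or glycine replicate 3 (0.20). That of ACSL4 was lost without glycine replicate 1 (0.34) or glycine replicate 3 (0.38). ACSS2 was called without vehicle replicate 1 or by the DESeq2 Wald test. AACS was called without vehicle replicate 3 or with no filter on low counts.

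Summed per chain length class, the long chain genes held a larger share of the members' level with glycine. These shares are a description only, because the choice of members used the same contrast. They leave out family genes that are not members, such as SLC27A4 (23.1 ± 2.29 with vehicle, 23.6 ± 1.34 with glycine) and ACSF2 (13.7 ± 0.694 and 12.3 ± 0.116). The 4 ACSL genes held 56.1 ± 1.38% of the summed level per kilobase of merged exons with vehicle and 67.9 ± 1.19% with glycine. The 4 short chain genes held 25.4 ± 0.826% and 20.1 ± 0.781%, and ACSM3 held 13.1 ± 0.597% and 7.29 ± 0.349%. SLC27A2 held 5.36 ± 0.529% and 4.70 ± 0.108%. For each class the vehicle and glycine libraries did not overlap in this share. The shares sum to 100%, and the level of SLC27A2 itself, 9.34 ± 0.707 with vehicle and 8.56 ± 0.617 with glycine, did overlap. The sum over all 10 members was 174.6 ± 6.35 with vehicle and 182.1 ± 12.9 with glycine, and these did overlap. Per kilobase of the principal transcript the share of the long chain class was 42.4 ± 1.28% with vehicle and 55.7 ± 1.45% with glycine. The share of SLC27A2, 3.71 ± 0.366% and 3.58 ± 0.0625%, overlapped between the groups on that scale.

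The other 17 genes of the family were not in the choice of members, and 13 of them passed the filter. Of these 13, none was called higher and 5 were called lower (38.5%, beside 13.3% over all genes), with a median log2 change of -0.15 beside 0.0035 over all genes. At an unadjusted p under 0.05 there were 7, of which 1 (ACSL6) was higher. The DESeq2 and limma tests each also called 0 higher and 5 lower. Of the 5, 4 were the other medium chain genes ACSM2A, ACSM2B, ACSM5 and ACSM1, and the fifth was SLC27A3. ACSM2A and ACSM2B, which are near-identical in coding sequence, count here as separate calls and raise the share of 38.5%. The list was written with earlier results of these data known, and the calls come from the fit over all genes. The 3 family genes called higher, ACSL3, ACSL4 and ACSL5, had been taken as members. The absence of higher calls among the 13, their share called and their median therefore depend in part on that choice.

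ACSM2A and ACSM2B activate medium chain acids and also aromatic acids such as benzoate, the step that precedes conjugation to glycine in liver and kidney mitochondria. ACSM2B was at 10.6, 10.7 and 10.9 CPM with vehicle and at 4.26, 4.56 and 3.93 CPM with glycine. The highest glycine library was far below the lowest vehicle library, and the log2 change was -1.33 ± 0.0982 (edgeR, adjusted p = 2.59e-06). ACSM2A was at 3.65, 4.56 and 4.67 CPM with vehicle and at 1.19, 1.37 and 1.28 CPM with glycine, a log2 change of -1.73 ± 0.155 (adjusted p = 9.55e-06).

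The split of reads between ACSM2A and ACSM2B is uncertain. Their coding sequences have the same 1731 bases with 21 differences (98.8% identity), and the longest run with no difference is 285 bases. The signature stretch of 36 bases is identical in both. The 40 coding bases in which they differ most, coding bases 793 to 832 in exon 6 of each (chr16:20471588-20471627, plus strand, for ACSM2A and chr16:20552206-20552245, minus strand, for ACSM2B), hold 4 differences, shown in capitals.
ACSM2A: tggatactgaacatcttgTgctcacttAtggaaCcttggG
ACSM2B: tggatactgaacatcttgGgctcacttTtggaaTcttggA
A read from elsewhere could be placed with the wrong gene or dropped. With the counts of both genes added, the pair was at 14.2, 15.2 and 15.6 CPM with vehicle and at 5.45, 5.93 and 5.21 CPM with glycine, a log2 change of -1.43 ± 0.0913 (adjusted p = 6.18e-07). This sum, chosen after the values were seen, does not depend on how reads were split.

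ACSM5, another mitochondrial medium chain enzyme, was at 5.51, 4.64 and 4.67 CPM with vehicle and at 2.16, 2.34 and 2.11 CPM with glycine, and fell by 1.16 ± 0.132 on the log2 scale (adjusted p = 7.88e-05). ACSM1, which acts on butyrate and related acids, was low throughout, with 50 to 66 counts per vehicle library and 31 to 52 per glycine library. Its level of 1.68 ± 0.221 CPM with vehicle and 0.975 ± 0.0888 CPM with glycine gave a log2 change of -0.79 ± 0.190 (adjusted p = 0.0150), and the call was lost without glycine replicate 2 (adjusted p = 0.0770). Together with ACSM3, all 5 ACSM genes with enough counts were lower with glycine. The remaining 2 were ACSM4, with 2 to 14 counts per library, and ACSM6, with 0 counts in every library, which allows up to 3 counts per library and covers counting error only.

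**Figure D3:**
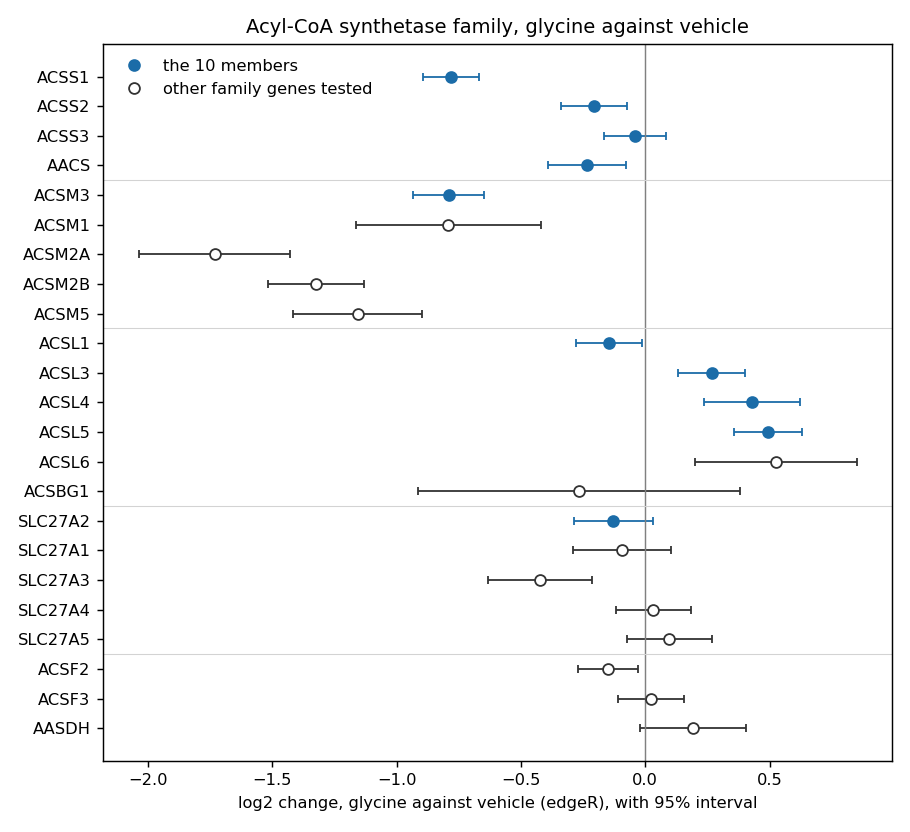
Log2 change with glycine against vehicle for the 10 members (filled) and the 13 other family genes tested (open), from the edgeR fit over all genes. Horizontal bars are 95% intervals, and lines separate the short chain, ACSM, ACSL with ACSBG1, SLC27A and remaining genes. The 5 ACSM genes lay between -1.73 and -0.79.

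The 5 ACSM genes that were measured are neighbours on chromosome 16, within 388 kb (chr16:20409534-20797581), where ACSM1 lies inside the span of ACSM3 on the other strand. The genes in and around this stretch were looked at after these values had been seen. Within it and 100 kb on either side, 6 other genes were tested. Of these, THUMPD1 and the unnamed pseudogene ENSG00000283399 lie inside the span of ACSM3, the pseudogene on the same strand. ERI2 overlaps the end of ACSM3 on the other strand. ERI2 and REXO5, both exonucleases, rose by 0.28 ± 0.0729 (adjusted p = 0.0219) and 0.59 ± 0.111 (adjusted p = 0.00356) on the log2 scale. THUMPD1 (0.19 ± 0.0707, adjusted p = 0.0977) and DCUN1D3 (-0.11 ± 0.0713, adjusted p = 0.378) were not called. GP2, a membrane glycoprotein gene, fell by 1.17 ± 0.343 (adjusted p = 0.0386). The pseudogene fell by 1.71 ± 0.391 (adjusted p = 0.0116), and both had a mean under 0.5 CPM. The call of GP2 was lost without vehicle replicate 1 or glycine replicate 2 or 3 (adjusted p up to 0.186), that of the pseudogene without vehicle replicate 1 or glycine replicate 2 (up to 0.0710) and that of ERI2 without vehicle replicate 3 or any 1 glycine library (up to 0.0938), each keeping its direction. By the DESeq2 Wald test GP2 was not called either (adjusted p = 0.0720). ERI2 shares exon sequence with ACSM3 in antisense and moved in the opposite direction.

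**Figure D4:**
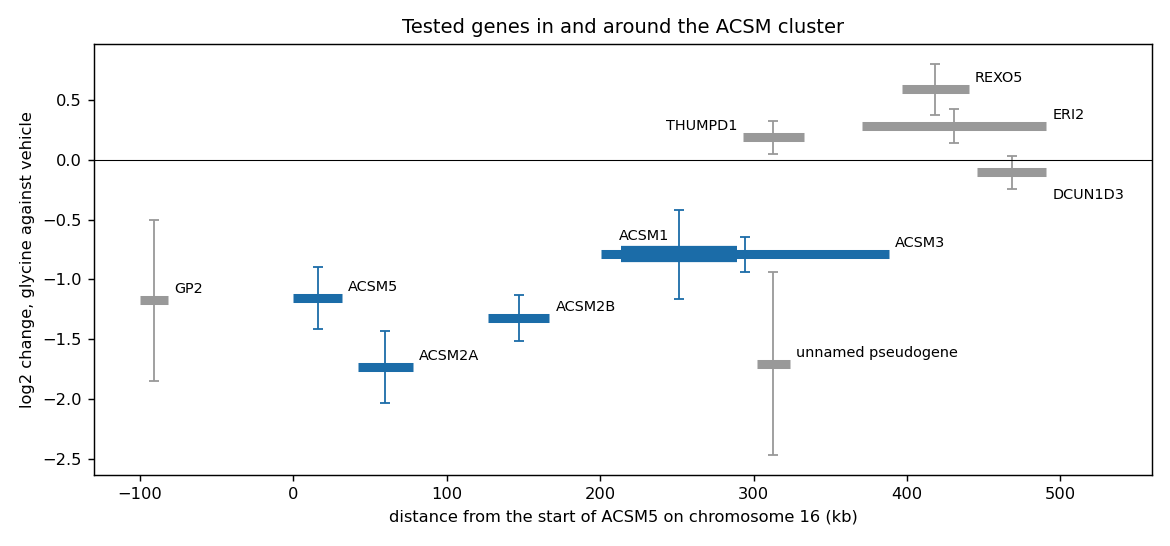
Log2 change with glycine against vehicle of the 11 tested genes in and around the ACSM cluster, plotted over their extent in kb from the start of ACSM5. Blue bars are ACSM genes and grey bars their neighbours, the thicker bar is ACSM1 inside ACSM3, and vertical lines are 95% intervals. The ACSM genes were all below 0, whereas ERI2 (0.28) and REXO5 (0.59) were above it.

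Outside the ACSM genes, 1 of the 9 other family genes tested was called. SLC27A3, a fatty acid transport protein with synthetase activity, fell from 6.34 ± 0.357 to 4.73 ± 0.287 CPM, a log2 change of -0.42 ± 0.107 (adjusted p = 0.0193), and its call was lost without vehicle replicate 2, glycine replicate 2 or glycine replicate 3, with an adjusted p of up to 0.0730. SLC27A4, SLC27A1 and SLC27A5, the last being the bile acid synthetase of liver, had log2 changes of 0.03 ± 0.0774, -0.09 ± 0.101 and 0.10 ± 0.0874 and were not called. SLC27A6 had 2 counts in all libraries together.

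ACSL6, the long chain synthetase best known from brain, had 48 to 56 counts per vehicle library and 60 to 129 per glycine library. Its level was 1.49 ± 0.140 CPM with vehicle and 2.14 ± 0.229 CPM with glycine, without overlap, and the log2 change of 0.52 ± 0.166 missed the threshold (adjusted p = 0.0539). It passed under 3 alternatives, with an adjusted p down to 0.0436. ACSF2, a mitochondrial medium chain enzyme outside the ACSM group, averaged 79.1 ± 4.02 CPM with vehicle and 71.3 ± 0.675 CPM with glycine (log2 change -0.15 ± 0.0620, adjusted p = 0.136). ACSF3, the mitochondrial malonyl-CoA synthetase, had a log2 change of 0.02 ± 0.0671, AASDH one of 0.19 ± 0.108 and ACSBG1 one of -0.27 ± 0.330, none of them called. ACSBG2 had 7 counts in all.

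Promoter sequence was compared for the genes held in the RefSeq promoter table (GRCh38.p14, 300 bases per start site), which covered 8 of the 10 members, without ACSM3 and ACSS3. The GC box, GGGCGG on either strand, was found in at least 1 start site of 7 of the 8 members and in 45.0% of all 35116 promoters, where several promoters can belong to 1 gene. The sterol regulatory element core TCACNCCAC on either strand was found for 1 member, ACSL1, and in 1.13% of all promoters, and it overlapped there with a match to the antioxidant response element core TGACNNNGC. These matches are a description of letters and not of binding.

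Acyl-CoA made or used next to these enzymes was followed in 11 lists of pathway genes, 140 genes in all, of which 120 were tested. Of these, 7 were called higher and 21 lower (23.3%, beside 13.3% over all genes), with a median log2 change of -0.07. Among the lists with tested genes, the share called ranged from 5.88% to 41.2%, each of a list with 17 tested genes. No difference between the lists was tested.

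Genes of the glycine N-acyltransferase list were hardly expressed, among them GLYAT, which joins activated benzoate and similar acids to glycine. GLYAT had 4 counts over the 6 libraries, GLYATL1 had 11, GLYATL2 had 0 and GLYATL3 had 10, so none could be tested.

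In the acetyl-CoA list, 0 of 14 tested genes were higher and 3 lower by edgeR, with 4 of 14 at an unadjusted p under 0.05. DESeq2 called 0 higher and 3 lower, and limma 0 higher and 2 lower. ACAT2, the cytosolic acetoacetyl-CoA thiolase of sterol synthesis, fell by 0.29 ± 0.0625 on the log2 scale (adjusted p = 0.00879), although 52.3% of its exon length was shared with SOD2 and TCP1 on the other strand. PDHB, a pyruvate dehydrogenase subunit, fell by 0.21 ± 0.0599 (adjusted p = 0.0318) and ACACB, the acetyl-CoA carboxylase of the mitochondrial surface, by 0.32 ± 0.0968 (adjusted p = 0.0440). The call of PDHB was lost without vehicle replicate 1 or 3 or glycine replicate 1 or 3 (adjusted p up to 0.115). That of ACACB was lost without any 1 library other than vehicle replicate 3 (up to 0.158). It was also lost by limma (adjusted p = 0.0504) and with total counts (0.0646). Of the thioesterases, which undo the reaction of the synthetases, 1 of 10 was called, THEM4, which rose from 11.2 ± 0.239 to 16.8 ± 0.275 CPM, a log2 change of 0.59 ± 0.0756 (adjusted p = 0.000199).

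The lists of fatty acid oxidation each held 1 or 2 calls. In the carnitine shuttle (28.6% called, median log2 change -0.26), 0 of 7 rose and 2 fell by edgeR, by DESeq2 and by limma. By edgeR, 4 of 7 had an unadjusted p under 0.05. SLC25A20, the carnitine-acylcarnitine carrier, fell by 0.47 ± 0.0837 (adjusted p = 0.00254) and CRAT, carnitine acetyltransferase, by 0.26 ± 0.0632 (adjusted p = 0.0151). In mitochondrial beta-oxidation, 1 of 17 was called, ETFA, an electron transfer flavoprotein subunit, which fell by 0.25 ± 0.0616 (adjusted p = 0.0176). In the peroxisomal list, 1 of 16 was called, the thiolase ACAA1, which fell by 0.22 ± 0.0638 (adjusted p = 0.0342) and has 21.2% of its exon length in common with other genes. The call of CRAT was lost without glycine replicate 3 (adjusted p = 0.0672), that of ETFA without glycine replicate 1 or 3 (up to 0.0915) and that of ACAA1 without vehicle replicate 3 or any 1 glycine library (up to 0.108). The shares were 5.88% and 6.25% in these last 2 lists and 28.6% in the carnitine shuttle, beside 13.3% of all genes. They rest on 1 or 2 calls each, so nothing is read from their differences.

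Of 6 ketone body enzymes tested, 2 fell, BDH1 by 0.53 ± 0.0764 (adjusted p = 0.000517) and BDH2 by 0.50 ± 0.0871 (adjusted p = 0.00211). Both are hydroxybutyrate dehydrogenases, BDH1 in mitochondria and BDH2 in the cytosol.

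Among the enzymes of glycerolipid and cholesterol ester synthesis, which are acyltransferases and the phosphatidate phosphatases LPIN1 to LPIN3, 1 of 17 rose and 5 fell, 2 of the 5 being LPIN1 and LPIN2. DGAT1, which makes triglyceride from diacylglycerol, fell from 170.7 ± 6.86 to 116.0 ± 3.72 CPM, a log2 change of -0.56 ± 0.0616 (adjusted p = 6.23e-05). SOAT2, which esterifies cholesterol, fell by 0.40 ± 0.0687 (adjusted p = 0.00178), MOGAT2, a monoacylglycerol acyltransferase, by 0.35 ± 0.0690 (adjusted p = 0.00527) and LPIN2, a phosphatidate phosphatase, by 0.32 ± 0.0728 (adjusted p = 0.0111). Of the phospholipid remodelling enzymes, 1 of 8 was called, LPGAT1, which fell by 0.36 ± 0.0730 (adjusted p = 0.00565).

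Carriers of fatty acids and acyl-CoA went in both directions, with 3 higher and 1 lower of 11 tested. FABP1, the liver fatty acid-binding protein, fell from 121.9 ± 10.9 to 87.7 ± 5.09 CPM, a log2 change of -0.47 ± 0.0752 (adjusted p = 0.00109). ACBD4, an acyl-CoA-binding protein, rose by 0.29 ± 0.0763 (adjusted p = 0.0222), CD36, a fatty acid uptake receptor, by 0.34 ± 0.0961 (adjusted p = 0.0335) and FABP5 by 0.24 ± 0.0713 (adjusted p = 0.0409). The calls of these 3 did not hold without single libraries, although the log2 changes stayed positive. ACBD4 was lost without vehicle replicate 2 or 3 or glycine replicate 1 or 2 (log2 change 0.25 to 0.28, adjusted p up to 0.115). CD36 was lost without vehicle replicate 1 or 3 or any 1 glycine library (0.30 to 0.34, adjusted p up to 0.110). It was also lost by the DESeq2 Wald test (adjusted p = 0.0539). FABP5 was lost without vehicle replicate 1 or 2 or any 1 glycine library (0.18 to 0.27, adjusted p up to 0.170).

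Among the regulators of these genes, 2 of 17 rose and 5 fell. INSIG2, which holds the sterol regulatory element-binding proteins in the endoplasmic reticulum, fell by 0.62 ± 0.0682 (adjusted p = 6.29e-05), whereas SREBF1, which encodes one of these proteins, rose by 0.37 ± 0.0808 (adjusted p = 0.00956). PPARA, the nuclear receptor that drives fatty acid oxidation in liver, fell by 0.41 ± 0.0929 (adjusted p = 0.0104) and its coactivator PPARGC1A by 0.43 ± 0.0994 (adjusted p = 0.0125). The call of SREBF1 was lost without glycine replicate 3 (adjusted p = 0.0579) and that of PPARGC1A without vehicle replicate 1 or glycine replicate 2 (up to 0.0506). INSIG1, a relative of INSIG2, had 4 counts over the 6 libraries and was not tested. No relation between these regulators and the synthetases was tested.

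**Figure D5:**
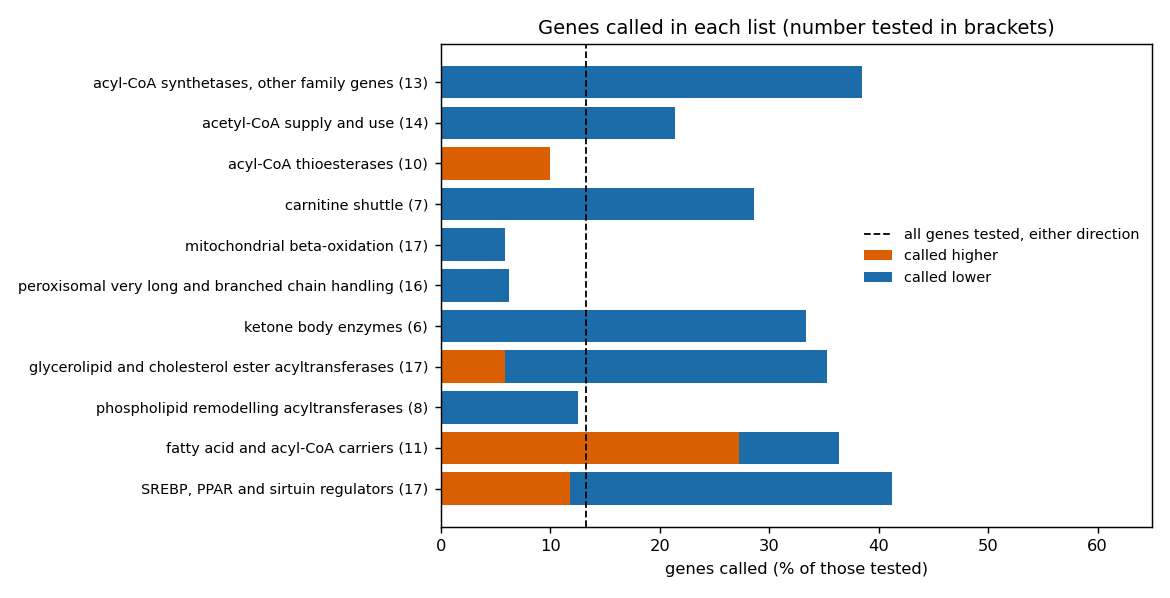
Share of tested genes called higher (orange) or lower (blue) with glycine in each list, with the number tested in brackets. The dashed line is the 13.3% called over all genes in either direction. The other family genes (38.5%) lay above the line with calls in the lower direction alone. The family genes called higher were members and are left out here. Mitochondrial beta-oxidation (5.88%) lay below the line.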

How the data were processed

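Per the labels, vehicle and glycine libraries (3 each) were made from total RNA of HepG2 cells. The authors deposited whole-number counts per gene, not normalized, made per the submitters' processing notes with Trimmomatic 0.36, STAR 2.5.2b and featureCounts of Subread 1.5.2 on GRCh38. The annotation release, strand setting and handling of reads with several positions are not given in the sources used here, so reads of overlapping genes and near-identical copies could be assigned in more than 1 way. Of 57500 genes, 56898 were in GENCODE 29 and 54742 of these, among them the 10 members, had identical start and end coordinates.

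Glycine was compared with vehicle on the deposited counts by a two-sided quasi-likelihood test (edgeR 4.0.16, R 4.3.3) with group as the sole term and TMM scaling. The default expression filter (count of at least 10, total of at least 15) left 15492 genes, over which Benjamini-Hochberg adjustment was made. Genes with an adjusted p under 0.05 were called. Each standard error was the log2 change divided by the square root of F. CPM used scaled library sizes. Counts ranged from 31795489 to 58815986 per library, and with no molecular identifiers a read need not be a separate molecule, so limits at 0 counts cover counting error only. The common biological coefficient of variation was 7.29%. Replicates differed by a chi-square of 6.97 to 26.8 per degree of freedom, so none was a duplicate. Same-numbered libraries did not deviate together (correlations from -0.0577 to -0.0026), so the numbers were not used as pairs. Positive correlations (0.1797 to 0.2143) occurred only across unequal numbers, and they tied every vehicle library to a different glycine library. No fit used those pairs, and whether they reflect a shared run was not tested.

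The members and gene lists were chosen with earlier results of these data known. Named genes are all members, all other family genes tested and, per pathway list, up to 4 called genes with the smallest p. Genes in and around the ACSM cluster, single marker genes and genes with counts too low to test were added after their values were seen. A listed gene is not reported here. Sequences came from GENCODE 29 transcripts and the RefSeq promoter table, read with Biopython 1.88 and aligned with edlib 1.3.9. Protein sequences were not used here. Alternatives were other scaling, other filters, DESeq2 1.42.0, limma 3.58.1 with voom, a replicate block, leaving out each library in turn and another transcript length. Adding ACSM2A and ACSM2B counts was chosen after seeing the data. The scripts were tested on simulated data.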

Additional observations from a re-analysis of the deposited data

How the results depend on the processing

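No gene named as called changed direction under the alternatives that gave it a value (13 or 14 per gene). Over all genes, leaving out 1 library at a time gave 587 to 926 genes higher and 655 to 1010 lower. Among the members it gave 1 to 3 higher and 2 to 3 lower, among the other family genes 0 higher and 3 to 5 lower, and over the pathway lists 2 to 6 higher and 16 to 22 lower. With the replicate block, 866 genes were higher and 918 lower, with 3 and 2 members, 0 and 5 other family genes, and 5 and 19 pathway genes. The numbers share no stated pairing, and the block joined libraries of equal number, not those with positive correlations. With the block, PDHB (adjusted p = 0.0675), FABP5 (0.0675), ACAA1 (0.0618), PPARD (0.0644) and the markers APOA1 (0.0804) and ACTA2 (0.0612) were no longer called, with log2 changes close to those without it.

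ACSL6 was called higher, making 1 other family gene, with total counts, with no filter and with a filter of 1 CPM in 3 libraries. The principal transcript length moved the vehicle shares of the members' summed level from 25.4% to 32.5% (short chain), 13.1% to 21.4% (medium), 56.1% to 42.4% (long) and 5.36% to 3.71% (very long). Of the 23 family genes tested, ACSBG1 had the largest SE, with 90 counts over all libraries and an SE of 0.330. Other scaling moved the median log2 change of all genes by at most 0.014.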
